A study of Mus musculus with 12 samples.

Results

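The Iroquois genes Irx1 to Irx6 were described here through the ChIP-seq summits that surround them. A summit is the position of highest read coverage within a called peak, and a summit was taken as a member when it lay within 300 kb of the body of an Irx gene on the mm10 mouse genome. Of the 268431 summits in the 12 peak lists of the series, 367 met this rule: 108 at the Irx1, Irx2 and Irx4 cluster on chromosome 13 and 259 at the Irx3, Irx5 and Irx6 cluster on chromosome 8. The lists came from forelimb buds of wild-type Swiss Albino mouse embryos. Pregnant females were injected at E10.5 (embryonic day) with C59 (Wnt-C59, a small molecule inhibitor of WNT signaling) or with the solvent DMSO. The buds were dissected 6 h later. By the methods, the C59 solution also held methylcellulose and Tween-20, while controls received DMSO in PBS. The injections therefore differed in more than C59. β-catenin and acetylated lysine 27 of histone H3 (H3K27ac) were each profiled in 2 libraries of DMSO-treated wild-type controls and 2 libraries of C59-treated buds, and each of these 4 groups also has a consensus list, called on both libraries together and kept where both libraries had a peak. Every library came from pooled whole buds, so mesenchyme and ectoderm were not separated.

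Iroquois proteins are homeodomain transcription factors of the TALE class. In mammals the 6 genes lie in 2 clusters of 3, whose members share long-range regulatory elements. Irx3 and Irx5 act in the early limb bud in the formation of proximal and anterior skeletal elements, and introns of the neighbouring Fto gene hold elements that contact Irx3. When WNT ligands bind their receptors, β-catenin accumulates and is brought to DNA by TCF/LEF proteins, which recognise a short core sequence. C59 blocks Porcupine, the acyltransferase that WNT ligands need for secretion, while H3K27ac marks active promoters and enhancers.

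At Irx1, Irx2 and Irx4, 16 summits formed the β-catenin consensus of the controls. The Irx3, Irx5 and Irx6 locus held 39. The core was searched as ATCAAAG or TTCAAAG on both strands, in 200 bp centred on each summit. The 2 cores differ in their first letter alone, so a position matches at most 1 of them. The stretches that carry a core at the named summits are shown from mm10, plus strand, 5′ to 3′, each reaching from the summit to the core with 20 bp on either side. Capitals mark the core, which reads CTTTGAT or CTTTGAA where it lies on the minus strand. The first 6 are from the Irx1, Irx2 and Irx4 locus and the other 6 from the Irx3, Irx5 and Irx6 locus.
chr13:71690515-71690638: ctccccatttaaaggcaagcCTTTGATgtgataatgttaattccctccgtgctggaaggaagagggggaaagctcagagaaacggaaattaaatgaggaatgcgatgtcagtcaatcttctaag
chr13:72572041-72572113: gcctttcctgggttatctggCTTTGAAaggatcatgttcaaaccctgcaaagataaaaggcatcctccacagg
chr13:72638415-72638473: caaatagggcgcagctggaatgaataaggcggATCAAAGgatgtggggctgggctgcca
chr13:72715100-72715222: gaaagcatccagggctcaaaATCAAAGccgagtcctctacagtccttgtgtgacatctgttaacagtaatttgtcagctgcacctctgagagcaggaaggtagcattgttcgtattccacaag
chr13:73041656-73041766: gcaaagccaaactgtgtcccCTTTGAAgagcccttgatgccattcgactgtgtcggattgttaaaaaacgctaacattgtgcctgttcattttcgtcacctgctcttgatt
chr13:73041833-73041927: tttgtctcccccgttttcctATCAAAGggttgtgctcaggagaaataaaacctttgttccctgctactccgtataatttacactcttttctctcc
chr8:91713989-91714067: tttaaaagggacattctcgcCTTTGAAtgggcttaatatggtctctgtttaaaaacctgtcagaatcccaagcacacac
chr8:91948627-91948686: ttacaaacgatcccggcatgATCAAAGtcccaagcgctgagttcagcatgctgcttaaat
chr8:92113875-92113964: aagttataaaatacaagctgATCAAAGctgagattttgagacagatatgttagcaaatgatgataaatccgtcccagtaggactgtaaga
chr8:92286884-92286978: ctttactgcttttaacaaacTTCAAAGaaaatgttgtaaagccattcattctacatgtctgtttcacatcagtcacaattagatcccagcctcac
chr8:92437274-92437347: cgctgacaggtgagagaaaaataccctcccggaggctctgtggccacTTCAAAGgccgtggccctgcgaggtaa
chr8:92870388-92870434: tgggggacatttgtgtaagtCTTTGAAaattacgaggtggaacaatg

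Of these 12 stretches, 5 had ATCAAAG and 2 had TTCAAAG on the plus strand, while 4 had CTTTGAA and 1 had CTTTGAT. The middle base of the core lay between 1 and 80 bp from the summit, and core distances elsewhere are measured likewise. In the highest summit of the Irx1, Irx2 and Irx4 locus it was 15 bp away, and in the highest of the Irx3, Irx5 and Irx6 locus 51 bp away.

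In the RefSeq promoter sequences (GRCm38.p6, the build of mm10), promoters of Irx2, Irx3 and Irx4 were matched, 1 each. None of these 3 promoters held a core, against 8.65% of all 32851 promoter sequences of the same length.

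Within each antibody, the libraries differed little in background coverage. From the fold enrichment (the coverage at a summit over the coverage the peak caller expected there) and p-value of the called summits, the genome-wide background coverage came to 1.57 and 1.81 fragments in the β-catenin controls, 1.83 and 1.82 in the β-catenin C59 libraries, and between 2.69 and 3.17 in the H3K27ac libraries. The lowest −log10 p in a C59 β-catenin list was 5.69 in replicate 1 and 5.72 in replicate 2, against 3.89 and 3.79 in the controls, and the lowest summit coverage called was 11 fragments in each C59 list and 8 in each control list. A C59 summit therefore needed more reads to be listed. Of the whole β-catenin lists, 20203 and 25836 summits were called in the controls and 330 and 358 after C59. Of markers that define cell types, H3K27ac summits lay within 1 kb of a transcription start site (TSS) of 8 of 8 limb mesenchyme genes in both control libraries and of the forelimb gene Tbx5. Among hindlimb genes Tbx4 was marked and Pitx1 was not. Of 5 ectoderm genes only Epcam was marked, of 3 muscle precursor genes Lbx1 was marked in both libraries and Pax3 in replicate 2, and of 3 endothelial genes Cdh5 in replicate 2, while 0 of 3 blood and 0 of 3 neural genes were marked.

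β-catenin summits at both Irx loci were listed in the controls and nearly all were missing from the C59 lists. At the Irx1, Irx2 and Irx4 locus, 19 and 21 summits were called in the 2 control libraries and 0 and 0 after C59. At the Irx3, Irx5 and Irx6 locus, 48 and 52 summits were called in the controls, 2 in C59 replicate 1 and 0 in C59 replicate 2. The groups did not overlap at either locus, but the whole lists fell likewise, from 20203 and 25836 summits to 330 and 358. The share of other windows in which the groups separate was not computed, so the fall is not particular to the Irx loci. With 2 libraries against 2, a two-sided exact permutation test cannot go below p = 0.333, and it gave p = 0.333 at each locus. At the first locus, 15 of 19 control summits in replicate 1 and 17 of 21 in replicate 2 had a −log10 p at or above 5.72. At the second locus, 44 of 48 and 42 of 52 did. This limit is the higher of the lowest values called after C59. The share of all control summits at or above it was not computed, so these counts describe the Irx loci alone. In whole buds, fewer cells with bound β-catenin and less β-catenin bound per cell cannot be told apart.

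**Figure D1:**
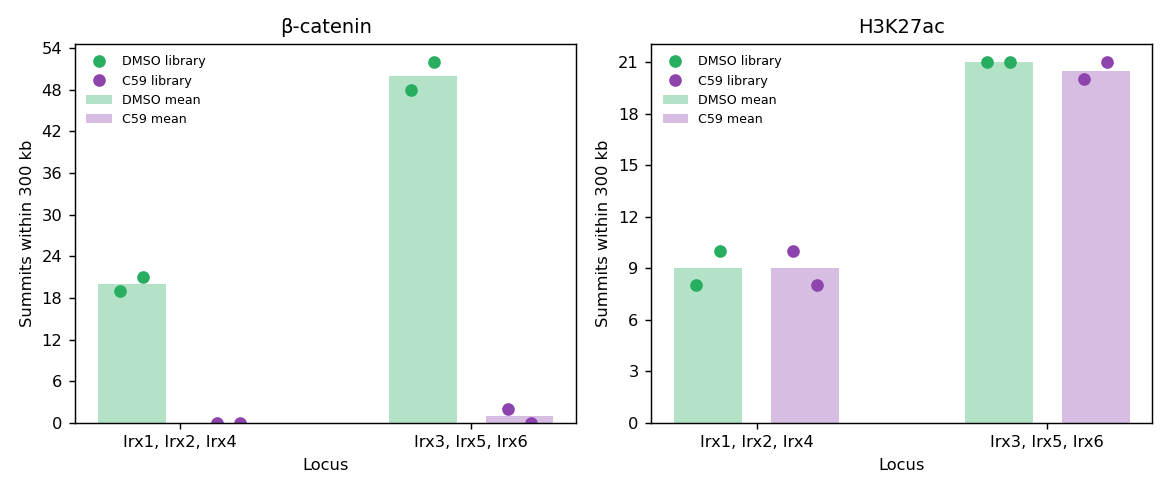
Summits within 300 kb of the Irx genes (y axis, number) at the 2 loci (x axis) in each library, for β-catenin (left) and H3K27ac (right). Points are libraries and bars are means of 2. The β-catenin counts are 19, 21, 48 and 52 in DMSO and at most 2 after C59, while the H3K27ac counts of the 2 treatments lie at the same height.

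None of the consensus summits of either locus lay inside a C59 consensus peak (0 of 16, Wilson 95% interval 0 to 19.4%, and 0 of 39, 0 to 8.97%), against 1.12% of all 16193 control summits. A count of 0 allows a share of up to 18.8% and 7.69%. None lay inside a peak of either C59 replicate, against 2.30% of all, so these counts are near the background of the whole list. A control summit just outside a C59 peak is not counted, as at both positions described next. Intervals and limits cover counting error only.

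The 2 C59 summits were both next to strong control summits. The first, at position 91713899 of chromosome 8 with a fold enrichment of 4.11 and 11 fragments, was 148 bp from the control summit at 91714047, where the control libraries had 140 and 153 fragments. The second, at position 91948853 with a fold enrichment of 5.44 and 17 fragments, was 187 bp from the control summit at 91948666, where the controls had 143 and 148. Neither control summit lay within the called C59 peak, but each C59 peak lay within the control consensus peak. The first C59 peak spanned 91713871 to 91714042, within 91713695 to 91714395, and ended just short of the control summit. The second spanned 91948786 to 91949055, within 91948200 to 91949223. At both positions coverage in C59 replicate 1 was far below both control libraries, and C59 replicate 2 had no listed value.

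The Irx genes differed in how many β-catenin summits surrounded them. In the control replicates, Irx3 had 23 and 25 summits within 300 kb, Irx5 had 19 and 20, and Irx6 had 13 and 15. At the other locus, Irx1 had 9 and 10, Irx2 had 8 and 7, and Irx4 had 2 and 4. No neighbours in this order of levels overlapped between replicates, although the windows of Irx3 and Irx5 and those of Irx5 and Irx6 share some ground and some summits were counted for more than 1 gene. In the consensus list Irx3 had 19 summits, and 99.0% of protein-coding genes had fewer. Irx5 had 14 (97.4% had fewer) and Irx6 had 10 (92.5%). Irx1 had 8 (86.2%), Irx2 had 5 (66.5%) and Irx4 had 3 (43.6%), where the median gene had 3. At least 1 control consensus summit lay within 300 kb of 82.7% of 21911 protein-coding genes.

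The order was different for H3K27ac. In the control consensus, Irx3 had 8 H3K27ac summits within 300 kb, Irx4 had 6, Irx5 had 5, Irx6 had 4, Irx2 had 1 and Irx1 had 0, and the median protein-coding gene had 13. Irx3 was thus among the genes with the most β-catenin summits while 31.8% of genes had fewer H3K27ac summits.

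Per length, the Irx3, Irx5 and Irx6 window held 26.3 control consensus β-catenin summits per Mb over 1.48 Mb, the Irx1, Irx2 and Irx4 windows 8.79 per Mb over 1.82 Mb, and the whole genome 5.94 per Mb. The median distance between neighbouring summits was 21.7 kb at Irx3, Irx5 and Irx6, 63.9 kb at Irx1, Irx2 and Irx4 and 55.0 kb over all chromosomes. Summits within 1 kb of each other formed 6 groups with 13 summits at the first of these loci and 1 group of 2 at the second. Median fold enrichment was 7.11 at Irx3, Irx5 and Irx6 and 7.98 at Irx1, Irx2 and Irx4, against 6.76 over all summits. Of the members, 23 of 39 and 10 of 16 were above that value, so the summits were dense at Irx3, Irx5 and Irx6 but mostly ordinary in height. GC content around the summits was also close to the median of 45.5% of all summits, at 44.0% and 47.0%.

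**Figure D2:**
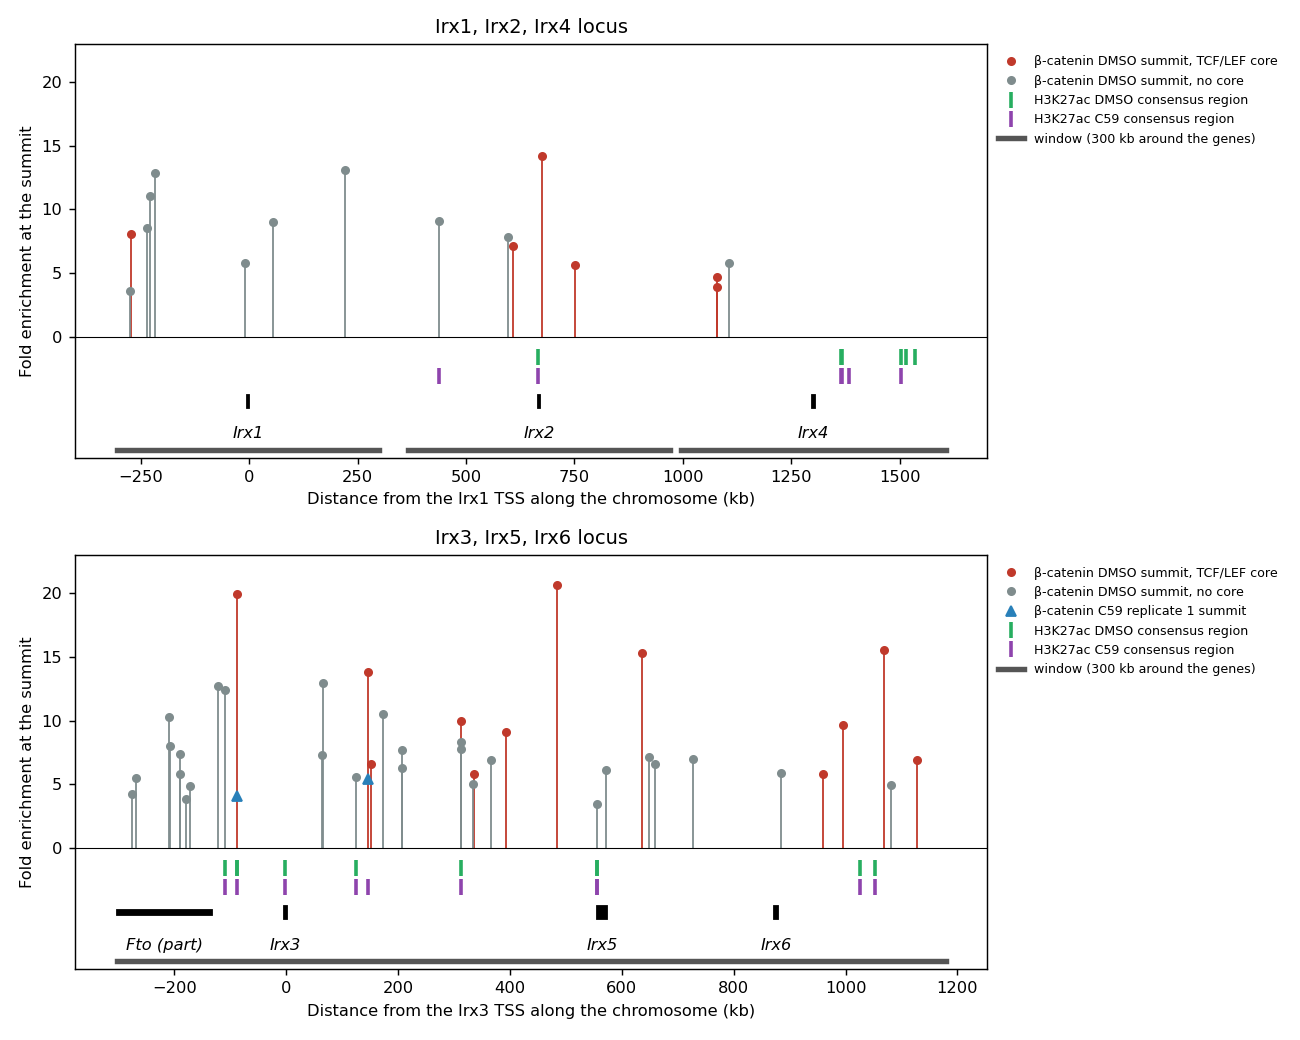
β-catenin consensus summits of the controls by distance from the Irx1 TSS (top) or the Irx3 TSS (bottom), in kb along the chromosome; stem height is the fold enrichment at the summit, red stems have a TCF/LEF core, triangles are the 2 C59 summits and ticks mark H3K27ac consensus regions. The highest stems are 14.2 at the top, next to Irx2, and 20.6 and 19.98 at the bottom, on either side of Irx3.

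The 2 control replicates gave similar heights for the member summits. A summit in both replicate lists could be assigned to 15 of 16 consensus summits at Irx1, Irx2 and Irx4 and to 35 of 39 at Irx3, Irx5 and Irx6, within 250 bp and each replicate summit used once. The fold enrichment of replicate 2 over replicate 1 had a median of 1.11 at the first locus (0.729 to 1.33) and of 1.01 at the second (0.550 to 1.497). Values between members that differ by less than these ratios cannot be ranked. The lowest ratio was at 92530002, between Irx5 and Irx6, with 7.76 in replicate 1 and 4.27 in replicate 2. The highest was at 91533143, inside Fto, with 4.08 and 6.11.

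**Figure D3:**
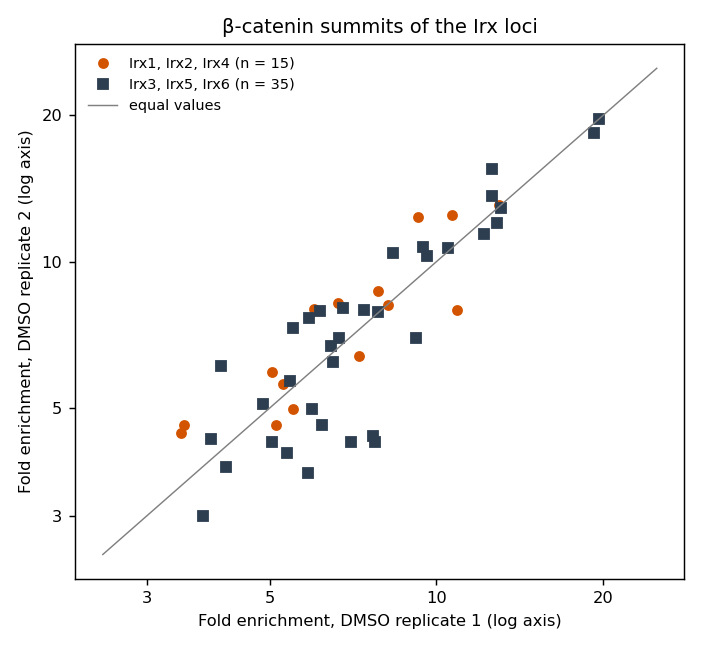
Fold enrichment of the member β-catenin summits in DMSO replicate 2 (y axis, log scale) against DMSO replicate 1 (x axis, log scale); circles are the 15 summits at Irx1, Irx2 and Irx4, squares the 35 at Irx3, Irx5 and Irx6, and the line marks equal values. The 2 highest summits have values from 18.4 to 19.7 in both replicates.

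At the Irx1, Irx2 and Irx4 locus, the β-catenin consensus summits lay between the genes and beyond Irx1. Of the 16 summits, 6 lay beyond Irx1, 5 between Irx1 and Irx2 and 5 between Irx2 and Irx4. In the control replicates, 6 and 7 summits lay beyond Irx1, 7 and 6 between Irx1 and Irx2, and 5 and 5 between Irx2 and Irx4, and replicate 2 alone had 2 beyond Irx4. None of the 16 consensus summits was within 1 kb of an annotated TSS, whereas 16.3% of all control summits were, and the median distance to the nearest TSS was 57.5 kb. No exon was hit: 12 summits were intergenic and 4 lay in an intron of Gm40999, a gene model next to Irx1.

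By consensus fold enrichment, the highest summit of this locus was next to Irx2, though its lead over the next was within the replicate ratios. At 72638435, 5.84 kb downstream of the nearest annotated Irx2 TSS and outside every annotated gene, the fold enrichment was 14.2 in the consensus, 12.97 in control replicate 1 and 13.07 in replicate 2, with 68 fragments in each. It exceeded 93.1% of control summits in fold enrichment. It is the stretch above with ATCAAAG 15 bp from the summit, and no C59 library listed a summit there.

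The next 4 were more than 200 kb from an Irx TSS, and none had a core. At 72184337, between Irx1 and Irx2 and 221 kb upstream of Irx1, the fold enrichment was 13.1 in the consensus and 10.7 and 12.5 in the replicates. At 71746636, in the Gm40999 intron 213 kb downstream of Irx1, it was 12.9 and 9.26 and 12.3. At 71734606, 225 kb downstream of Irx1, it was 11.1 and 10.9 and 7.95. At 72400915, 228 kb upstream of Irx2, the consensus value was 9.07 and the replicates had 7.84 and 8.71. The replicates of the first 3 overlap, and those of 72400915 were both below those of 72184337 and 71746636. Closest to Irx1 was a lower summit at 71954078, 5.36 kb downstream of its nearest annotated TSS, with a fold enrichment of 5.75 in the consensus and 5.13 and 4.62 in the replicates.

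A TCF/LEF core was found at 6 of the 16 summits (37.5%, Wilson 95% interval 18.5 to 61.4%), against 28.6% of all control summits, and 4 of the 6 lay between Irx2 and Irx4. Besides the summit next to Irx2, these were at 71690618 (fold enrichment 8.10), 72572093 (7.13), 72715202 (5.66), 73041907 (4.67) and 73041746 (3.93). The last 2 are 161 bp apart, 219 kb upstream of Irx4, and are the lowest of the 6. The interval of the share holds the genome-wide value.

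The Irx3, Irx5 and Irx6 locus had its summits inside Fto, between all 3 genes and beyond Irx6. Of 39 consensus summits, 8 lay inside Fto, 3 between Fto and Irx3, 16 between Irx3 and Irx5, 2 inside Irx5, 4 between Irx5 and Irx6 and 6 beyond Irx6. In the control replicates, 21 and 18 summits lay between Irx3 and Irx5, 9 and 13 inside Fto, and 7 and 8 between Irx5 and Irx6. Of the 39, 22 were intergenic. Less than 1 kb from a TSS of any annotated gene were 5 of 39 (12.8%, Wilson 95% interval 5.60 to 26.7%), near the background of 16.3%.

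By consensus fold enrichment, the highest summit lay between Irx3 and Irx5. At 92286958, 70.7 kb upstream of Irx5 and outside annotated genes, the fold enrichment was 20.6 in the consensus and 19.7 and 19.6 in the control replicates, with 110 and 139 fragments. It has TTCAAAG 51 bp from the summit and exceeded 98.7% of control summits. Neither C59 library listed a summit there.

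Close to it in height was the summit at 91714047, 87.9 kb downstream of Irx3, in an intron of the long noncoding RNA gene Gm36325 and 366 bp from a TSS of that gene. Its fold enrichment was 19.98 in the consensus and 19.3 and 18.4 in the replicates. Both replicates were below those of 92286958, the lowest of which was 19.6, but by less than the replicate ratios. These 2 summits therefore cannot be ranked, and by consensus coverage 91714047 was higher, with 269 fragments against 216. In the stretch above, the core of 91714047 reads CTTTGAA. This summit is also 1 of the 2 control summits with a C59 summit close by.

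The other 3 of the 5 highest also had a core. Beyond Irx6 at 92870410, in an intron of Lpcat2 (a lysophosphatidylcholine acyltransferase gene), the fold enrichment was 15.6 and 12.6 and 15.5 in the replicates. That summit lay inside the core, 1 bp from its middle base. Between Irx5 and Irx6 at 92437294, 79.5 kb downstream of Irx5, the fold enrichment was 15.3 and 12.6 and 13.7. Between Irx3 and Irx5 at 91948666, 147 kb upstream of Irx3, it was 13.9 and 13.1 and 12.9. In fold enrichment, the replicates of these 3 overlap, and all are below both replicates of the first 2. By consensus coverage, however, 91948666 had 270 fragments, level with the 269 at 91714047 and above the 216 at 92286958. The coverage expected there was 18.6 fragments, against 12.5 and 9.52 at those 2 summits.

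In all, 12 of the 39 summits had a core (30.8%, Wilson 95% interval 18.6 to 46.4%), an interval that holds the genome-wide 28.6%. Of the 12, 6 lay between Irx3 and Irx5 and 4 beyond Irx6, and 0 of the 8 inside Fto had a core. The sixth of the named core summits, at 92113944 between Irx3 and Irx5, had a fold enrichment of 9.94 in the consensus and 9.63 and 10.3 in the replicates. It opened a group of 3 summits over 1133 bp, and the other 2 of that group, at 92114581 and 92115077, had 8.29 and 7.74.

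Fto, whose protein demethylates RNA, ends 134 kb from the farther Irx3 TSS, and 7 of the 8 summits inside it were intronic. The highest was at 91592949, with a fold enrichment of 10.3 in the consensus and 9.44 and 10.7 in the replicates, and a second summit of 7.98 lay at 91593246. Another pair was at 91612724 with 7.38 and 91612528 with 5.77. The remaining 4 were lower, at 91533143 (5.48), 91630425 (4.87), 91525730 (4.25, in the untranslated part of an exon of a shorter Fto transcript) and 91622823 (3.85). The median inside Fto was 5.63, below the 7.74 of the 16 summits between Irx3 and Irx5. The 3 summits between Fto and Irx3 were all at 12.4 or higher, at 91692296 (12.4), 91679778 (12.8) and 91714047 (19.98).

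Only 1 consensus summit was at an Irx promoter. It lay at 92357882, 133 bp from an Irx5 TSS in the 5′ untranslated region of the first exon, and had a fold enrichment of 3.45 in the consensus and 3.79 and 3.0 in the replicates, with 15 and 13 fragments. It was the lowest of the 39 summits, and 1.41% of all control summits were as low or lower. For Irx1 a TSS summit of 3.97 was listed in control replicate 2 alone, and for Irx2 one of 3.87 in replicate 1 alone. Irx3, Irx4 and Irx6 had no β-catenin summit within 1 kb of a TSS in any list.

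At the limits of the windows, the member closest to the outer edge beyond Irx1 was 71689274 (fold enrichment 3.58), and just outside lay 71654195 (4.92). The 3 windows around Irx1, Irx2 and Irx4 leave gaps of 65.1 and 26.3 kb, and the first gap holds a summit at 72289141 with 12.3. Beyond Irx4 the next summit was 264 kb past the edge, at 73833987 with 25.1. At the other locus the outermost members were 91525730 (4.25) and 92929136 (6.88), and the nearest summits outside were 91446491 (4.74) and 93284021 (6.88).

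β-catenin and H3K27ac were rarely at the same position around the Irx genes. None of the 16 summits at Irx1, Irx2 and Irx4 lay inside an H3K27ac consensus peak of the controls (Wilson 95% interval 0 to 19.4%), and 2 of the 39 at Irx3, Irx5 and Irx6 did (5.13%, 1.42 to 16.9%), against 22.1% of all control summits. Both intervals lie below the genome-wide share, and neighbouring summits are not independent. Within 1 kb of an H3K27ac peak were 0 of 16 (interval 0 to 19.4%) and 7 of 39 (17.9%, 8.98 to 32.7%), against 34.1% of all. Measured to the closest H3K27ac consensus peak of the controls, the median summit was 365 kb away at Irx1, Irx2 and Irx4 and 60.1 kb away at Irx3, Irx5 and Irx6. The distances depend on that list. It leaves out chr13:72400326-72401272, a merged region called in both DMSO libraries (4.07 and 4.12). The β-catenin summit at 72400915 lies in this region but was scored as 228 kb away. Likewise, the summit at 92797798 was scored as 29.5 kb away but lies in a region called in DMSO replicate 1 alone (4.64). Against the H3K27ac list of each control replicate alone, 3 and 2 of the 39 summits lay inside a peak, and 0 and 0 of the 16.

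The 7 summits inside H3K27ac or within 1 kb of it lay between the end of Fto and the Irx5 promoter. Those at 92114581 and 92115077 were inside a region at chr8:92114576-92115207, and 92113944 was 632 bp from it. The summit at 91926818 was 60 bp from a consensus peak, 91714047 was 108 bp and 91692296 was 117 bp away. With the lists merged, 91926818 lay inside a region called in both DMSO libraries (5.10 and 3.87). The Irx5 promoter summit was 22 bp away. The 2 highest summits outside this set, 92286958 and 92870410, were 69.7 and 14.7 kb from H3K27ac.

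H3K27ac was present at the promoters of Irx3, Irx5 and Irx2 and was not listed at those of Irx1, Irx4 and Irx6 in any of the 6 lists. At Irx3 a region over chr8:91799364-91801412 covered much of the gene and the start of the antisense transcript Irx3os and ended 503 bp from the nearest Irx3 TSS. Its highest fold enrichment was 5.14 and 4.52 in the controls and 6.12 and 5.11 after C59. At Irx5 there was a region on each side of the TSS. The upstream region, chr8:92356651-92357544, had 3.14 and 3.65 in the controls and 3.59 and 3.35 after C59. The region inside the gene, chr8:92357904-92358661, had 4.32 and 5.198 and then 5.01 and 5.12. At Irx2, chr13:72628880-72629277 had 4.07 and 2.83 in the controls and 4.79 and 3.52 after C59. The value of 2.83 rests on 10 fragments, the lowest coverage called in DMSO replicate 2. In each of these 4 regions the DMSO and C59 values overlapped.

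H3K27ac summits were about as numerous after C59 as in the controls. At Irx1, Irx2 and Irx4, 8 and 10 summits were called in the controls and 10 and 8 after C59. At Irx3, Irx5 and Irx6, 21 and 21 were called in the controls and 20 and 21 after C59. The two-sided exact permutation test gave p = 1 at both loci. Of the control consensus regions, 4 of 6 (66.7%, Wilson 95% interval 30 to 90.3%) and 8 of 10 (80.0%, 49.0 to 94.3%) overlapped a C59 region, against 87.0% of all. Of the C59 regions, 4 of 6 and 9 of 11 (81.8%, 52.3 to 94.9%) overlapped a control region, against 89.3% of all.

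Regions listed in the consensus of a single treatment had values below the median summit of that list (5.66 in the controls and 5.72 after C59). Several were called in a replicate of the other treatment. Between Irx1 and Irx2, a region at chr13:72400326-72401272 had a C59 consensus value of 4.03 and no DMSO consensus value, yet its fold enrichment was 4.07 and 4.12 in the DMSO libraries and 4.05 and 4.21 after C59. The 2 DMSO libraries placed it on different sides of the β-catenin summit at 72400915, which lay inside it. Beyond Irx4, a C59 region at chr13:73346447-73347044 by Eprn had 3.60 (and 5.92 in DMSO replicate 2), and a DMSO region at chr13:73477082-73477466 in Lpcat1 had 3.16. A second DMSO region in Lpcat1, chr13:73499878-73500524, had 2.94, with 3.09 and 3.30 in the DMSO libraries and no call after C59. Between Irx3 and Irx5, a region at chr8:91926446-91927010 had a DMSO consensus value of 5.34, above the 5.11 of the Irx3 region. It holds the β-catenin summit at 91926818 and was called in both DMSO libraries (5.10 and 3.87) and in no C59 library. The next region, chr8:91927311-91927750, was called in both C59 libraries (2.94 and 2.82) and in no DMSO library. The region at chr8:91948323-91949383 was called in both C59 libraries (3.59 and 3.77) and in DMSO replicate 2 (3.86), and holds the β-catenin summit at 91948666. The region at chr8:91714224-91714580, in Gm36325 next to the summit at 91714047, was called in both DMSO libraries (3.79 and 2.70) and in C59 replicate 1 (3.68).

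In regions called in all 4 H3K27ac libraries, no member region passed the test of C59 against DMSO. After merging, 17475 regions of the genome had a summit in each library, of which 5 lay at Irx1, Irx2 and Irx4 and 8 at Irx3, Irx5 and Irx6. The highest fold enrichment per library was compared on the log2 scale with limma. None of the 13 member regions passed a Benjamini-Hochberg adjusted p of 0.05 (lowest 0.48) and 0 had an unadjusted p under 0.05, while 0.0114% of all regions were higher and 0.00572% lower after C59 and 11.6% had an unadjusted p under 0.05. With so few calls in the genome, the absence of calls among 13 regions is near the background. Scored by summit coverage instead, 974 of 16232 regions passed and 0 of 12 members.

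The largest difference among members was an increase at chr8:91691732-91692179, between Fto and Irx3 and next to the β-catenin summit at 91692296. Its fold enrichment was 4.34 and 4.38 in the controls and 5.75 and 5.28 after C59, a log2 difference of 0.37 ± 0.18 (SE, n = 2 and 2, limma adjusted p = 0.48), and the groups did not overlap. Nor did they at chr8:92114577-92115207, which holds 2 β-catenin summits between Irx3 and Irx5 and had 3.795 and 3.861 in the controls and 4.31 and 4.02 after C59, or at the Mmp2 promoter, which was lower after C59. These were 2 of 13 regions with both C59 values above both DMSO values and 1 of 13 with both below, against 20.9% and 19.4% of all regions tested. At Irx3 the log2 difference was 0.24 ± 0.19 (limma adjusted p = 0.66), at Irx2 0.30 ± 0.23 (0.65), and at the 2 Irx5 regions 0.06 ± 0.18 (0.93) and 0.12 ± 0.19 (0.84). The lowest was at the Lpcat2 promoter, at -0.32 ± 0.20 (limma adjusted p = 0.57). Single libraries moved these values. With each library left out in turn, Irx2 ranged from 0.016 (without DMSO replicate 2) to 0.59 (without DMSO replicate 1, limma adjusted p = 0.46), Irx3 from 0.12 (without DMSO replicate 2) to 0.36 (without DMSO replicate 1) and Lpcat2 from -0.14 (without C59 replicate 2) to -0.49 (without C59 replicate 1). The median of the 13 was 0.06, against 0.03 over all regions tested, and 8 of 13 were above 0.

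**Figure D4:**
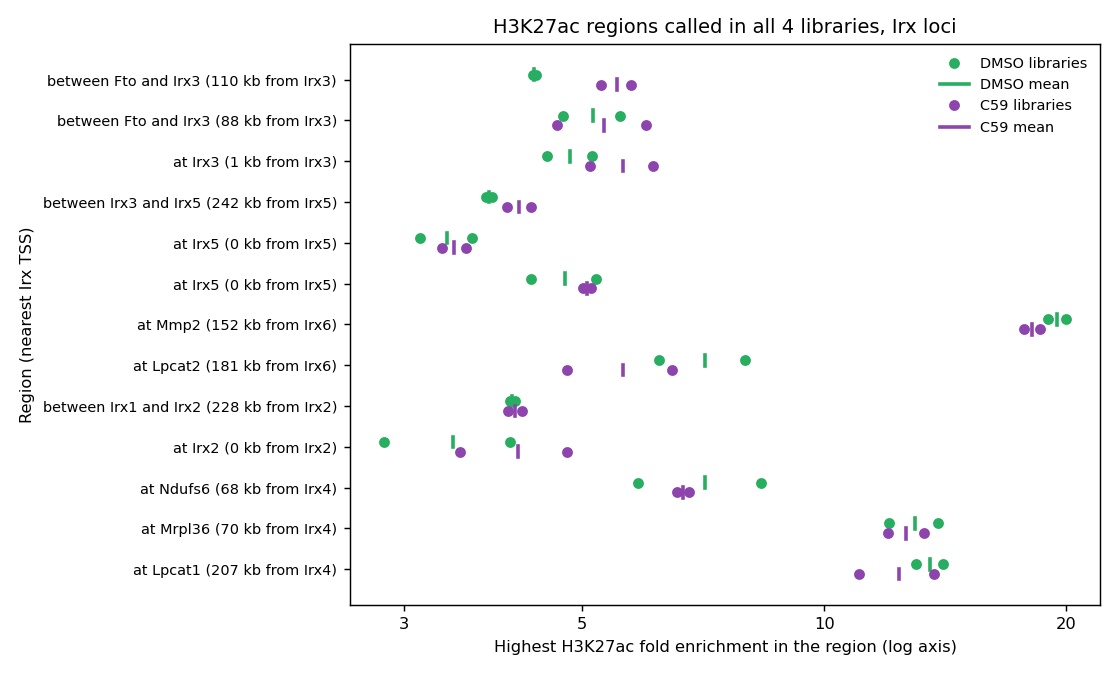
Highest H3K27ac fold enrichment (x axis, log scale) of the 13 member regions called in all 4 libraries (y axis, named by position and distance to the nearest Irx TSS). Points are libraries and bars are means of 2. The DMSO and C59 ranges overlap in 10 of the 13, and the highest values, 17.7 to 20.02, are at Mmp2.

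The highest H3K27ac in the windows belonged to other genes. The promoter of Mmp2 (a matrix metalloproteinase gene, beyond Irx6) reached 20.02 and 19.02 in the controls and 18.6 and 17.7 after C59. Beyond Irx4, the promoter of Lpcat1 had 14.1 and 13.02 and then 13.7 and 11.1, and that of the mitochondrial ribosomal protein gene Mrpl36 13.9 and 12.05 and then 13.3 and 12.02. All are above the values at the Irx promoters. Of 8 other protein-coding genes with a TSS in the windows, 5 had an H3K27ac summit within 1 kb in both consensus lists and 0 had a β-catenin consensus summit. The shares of all protein-coding genes with such summits at a TSS were not computed. These counts and those at the Irx promoters therefore describe the windows alone.

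Other genes of the TALE class, the Meis, Pbx, Pknox and Tgif genes whose proteins act as homeodomain cofactors or repressors, all had control β-catenin consensus summits within 300 kb (11 of 11, against 82.7% of protein-coding genes). They had between 1 and 22 such summits with a median of 6. Meis2 had the most, with 23 and 25 in the control replicates and 22 in the consensus, and Meis1 had 21 and 27 in the replicates and 19 in the consensus, where Irx3 had 23, 25 and 19. In the 14 regions at their promoters that were called in all 4 H3K27ac libraries, 0 were higher and 0 lower in limma, with 0 at an unadjusted p under 0.05.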

How the data were processed

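Forelimb bud chromatin was immunoprecipitated for β-catenin or H3K27ac in 2 libraries per treatment, and the 4 input libraries, for which only labels are held, were not used. Per the submitters' processing notes, reads were trimmed with Cutadapt 4.1, aligned to mm10 with Bowtie2 2.4.5 and called with MACS2 2.2.7.1, with Picard 2.27.4 for duplicates; the methods add that no input was used in calling. The deposited lists give for each summit the fold enrichment (a ratio of summit coverage to the coverage expected by MACS2, within the library) and the −log10 p and −log10 q, all computed by the authors. For the consensus lists the authors pooled both replicates after sampling them to equal size, so fold values there have no spread. Because folds are relative to each library's own background and weak summits are unlisted, absence from a list is not absence of binding.

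Summit coverage in fragments was solved from fold and p for summits with −log10 p up to 250, and all were matched within 0.01. Genes are from GENCODE vM21, sequences from GRCm38. Shares have Wilson 95% intervals, counts per library were compared by exact permutation, and H3K27ac regions merged over the 4 replicate lists by limma 3.58.1 (R 4.3.3; log2 of the highest fold, library medians subtracted, trended empirical Bayes, Benjamini-Hochberg over all regions). Python 3.11 and scipy were used otherwise. The functions were tested on simulated data. Named were all Irx genes, the 5 highest summits per locus, those at Irx promoters, inside Fto or near a C59 peak, the 6 highest with a core, H3K27ac regions at Irx promoters and the 3 of highest fold per locus in the consensus of a single treatment; the remaining region of that kind at each locus was added after its values were seen. Members and lists were chosen with earlier results of these data known. Nothing says that replicate numbers pair libraries; p-values measure the spread between pools of buds.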

Additional observations from a re-analysis of the deposited data

How the results depend on the processing

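Of the counts that describe the 2 loci and the H3K27ac test, 47 alternative values stayed within 1.5 times the reported value and 18 did not. With 100 kb instead of 300 kb, control β-catenin summits came to 6 at Irx1, Irx2 and Irx4 and 11 at Irx3, Irx5 and Irx6, H3K27ac summits to 4 in the controls and 5 after C59 at the first locus, and to 10 and 10 at the second. With 500 kb, H3K27ac summits at Irx1, Irx2 and Irx4 came to 14 and 15. A TCF/LEF core was found at 2 summits of Irx1, Irx2 and Irx4 in a 100 bp window, and ATCAAAG alone at 4 summits of Irx3, Irx5 and Irx6. Extending H3K27ac peaks by 1 kb put 7 summits of Irx3, Irx5 and Irx6 inside. No alternative placed a control summit of either locus inside a C59 peak or within 1 kb of a C59 consensus summit. Overlap of whole β-catenin peaks was not among these alternatives. The restriction to control summits with a −log10 p as high as called after C59 was chosen after seeing the data and left 16 and 43 per library on average.

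In limma, 3 regions of the genome passed as reported, 974 with summit coverage over the background, 7 with regions of mean fold of at least 5, and 6 to 31 when a library was left out. Leaving out a library leaves a treatment with 1 sample, assumed to vary like the other group. With a replicate block 125 passed. Deviations of same-numbered libraries correlated at only 0.010, which with 2 libraries per treatment cannot decide whether the numbers pair libraries. No member region passed under any of these. Member log2 differences changed sign in 11 of 110 alternative values, all in regions that did not pass. Under summit coverage, the upstream and inner Irx5 regions had -0.15 and -0.075. With a library left out, the ranges that crossed 0 ran from -0.074 to 0.21 at chr8:91712792, -0.023 to 0.14 at the upstream Irx5 region, -0.035 to 0.11 at chr13:72400338, -0.27 to 0.19 at the Ndufs6 promoter, -0.13 to 0.12 at the Mrpl36 promoter and -0.22 to 0.0013 at the Lpcat1 promoter. The cause was not tested. Coverage of 11 fragments or more was needed for a C59 β-catenin summit, which limits what could be seen there.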

Other observations

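Among protein-coding genes outside both loci, those with summit counts most like each Irx gene were found by Euclidean distance of log2(count + 1) over the 8 replicate lists, with summits counted within 300 kb of the gene body. For Irx3 they were Hs3st3a1, a heparan sulfate sulfotransferase gene (distance 0.79), and Wwox (0.87). Hs3st3a1 had 20 and 24 β-catenin summits in the controls and 1 and 0 after C59, and 9 and 9 H3K27ac summits in the controls and 9 and 10 after C59. For Irx5 they were Cblb (0.51) and Hhip (0.53), the latter a hedgehog antagonist gene with 16 and 18 β-catenin summits in the controls and 0 and 0 after C59. For Irx6 they were Eif3e (0.46) and Rspo2 (0.59), an R-spondin gene that enhances WNT signaling, with 13 and 14 β-catenin summits in the controls and 0 and 0 after C59. For Irx1 they were Gm11232 (0.69) and Ctnna2 (0.81), for Irx2 Gm5426 (0.31) and Epyc (0.58), and for Irx4 Hmmr and Nudcd2 (both 0.34). Hmmr and Nudcd2 had the same count as each other in each of the 8 lists.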
